A study of Mus musculus with 20 samples.

Results

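The 10 genes described here belong to the integrated stress response and to the serine synthesis pathway that it controls. They are *Atf4*, *Ddit3*, *Trib3*, *Asns*, *Chac1*, *Psat1*, *Phgdh*, *Psph*, *Gdf15* and *Sesn2*, taken by name from the 43430 genes counted in mouse kidney. All 10 were among the 16152 genes with enough counts to be tested. RNA was from kidney cortex of male C3H/HeJ mice, in 4 groups of 5 libraries: WT placebo, WT MAT2Ai, SP placebo and SP MAT2Ai. The methods describe total RNA of cortex, whereas the labels also mention isolation of nuclei, and which of the 2 gave these libraries is not settled by the sources used here. SP stands for Sweet Pee, a missense mutation of *Slc5a2*, and homozygous SP mice make no functional SGLT2, the glucose carrier of the early proximal tubule. Every group was fed a high-fat diet (HFD), so no group on normal chow was compared. After 8 weeks of HFD the mice received DMSO (placebo) or MAT2Ai, a fluorinated styryl-aniline compound that inhibits the methionine adenosyltransferase MAT2A, by intraperitoneal injection at 10 mg/kg 3 times per week for 8 weeks. The design asks whether inhibiting the synthesis of S-adenosylmethionine from methionine changes gene expression in the kidney of WT and of SP mice. Kidney S-adenosylmethionine was reported as lower, by a trend, in SP mice on MAT2Ai, and no level was shown for WT mice on MAT2Ai.

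In the integrated stress response, kinases that sense amino acid shortage, unfolded protein, heme deficiency or double-stranded RNA phosphorylate the translation factor eIF2α. Most protein synthesis then slows, while the mRNA of the transcription factor ATF4 is translated more, so that ATF4 protein can rise with little change in its mRNA. ATF4, often with a C/EBP partner, switches on genes of amino acid supply, among them the serine pathway, in which PHGDH, PSAT1 and PSPH turn a glycolytic intermediate into serine. Serine feeds the one-carbon pool and, through it, the methionine cycle in which MAT2A acts.

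ATF4 and its C/EBP partners bind a composite element known as CARE. The letters TGATGNAAN were searched on both strands of RefSeq promoter windows of 300 bases (250 before and 50 after each start site, build GRCm38.p6), and 12 windows covered all 10 genes. *Trib3*, *Asns* and *Chac1* held a match, as did 3.95% of all 32851 windows. A further form with a G at the third base, TGGTGCAAT, was chosen from the windows of *Trib3* and *Psat1* themselves, so that its share of all windows, 0.0883%, is no comparison. Start sites are those of RefSeq transcripts and differ from the gene ends given with the values, which span all GENCODE transcripts. The start used for *Psat1* lies inside the longer GENCODE span, and that of *Trib3* just outside its end. The matches are printed with 10 bases on each side to show how the promoters of the members differ in these letters. Capitals mark the matched letters, and a match describes the letters only.
Trib3, opposite strand to the gene, 13 to 21 bases after the start site, chr2:152344029-152344057: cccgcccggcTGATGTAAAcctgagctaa
Trib3, TGGTGCAAT form, gene strand, from -33 to -25, chr2:152344075-152344103: gggtcacagaTGGTGCAATcccgggccgc
Asns, gene strand, from -23 to -15, chr6:7693214-7693242: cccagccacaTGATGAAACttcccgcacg
Chac1, opposite strand to the gene, from -194 to -186, chr2:119351038-119351066: ctggcaggagTGATGCAACggcagggaag
Psat1, TGGTGCAAT form, gene strand, from -136 to -128, chr19:15925177-15925205: cgcgggtggcTGGTGCAATcccctgctct
The windows of *Atf4*, *Ddit3*, *Phgdh*, *Psph*, *Gdf15* and *Sesn2* held neither form.

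Library depth was 53296824 to 79339949 reads counted in genes, with 12.4% to 22.2% of them mitochondrial. Levels are given as CPM, reads of a gene scaled to library size with TMM factors. In 2 libraries labelled SP placebo, replicates 1 and 2, *Slc5a2* was at 241 and 282 CPM, against 40.2 to 85.9 CPM in the other 8 SP libraries and 229 to 518 CPM in the 10 WT libraries. Where leaving these libraries out changed a count of called genes, the value is given both ways. Another library, WT MAT2Ai replicate 2, stood far from the rest on the first principal component (20.5% of the variance). Its summed level of 12 tubular injury genes was 8096 CPM, where the median of the WT MAT2Ai group was 698 CPM. Libraries of the other groups lay between 467 and 719 CPM. The second highest sum, above that range, was that of WT MAT2Ai replicate 3, with the injury gene *Spp1* alone at 576 CPM. *Havcr1*, which codes for the injury marker KIM-1, was at 1214 CPM in WT MAT2Ai replicate 2. The sum of 5 markers of the S1 and S2 proximal tubule was lowest in replicate 2 of WT MAT2Ai, at 5307 CPM. In bulk tissue fewer cells of a type and less RNA per cell cannot be told apart.

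Per kilobase of exon, the levels of the 10 genes in WT placebo fell into a wide order. *Atf4* was highest at 33.6 ± 3.13 CPM per kb (SD, n = 5). *Sesn2*, which codes for a leucine-binding restraint on mTORC1, followed at 12.6 ± 2.49, and *Ddit3*, the gene for the pro-apoptotic factor CHOP, at 7.85 ± 1.28 CPM per kb. *Gdf15*, *Psph* and *Psat1* lay next to each other at 2.89 ± 0.654, 2.86 ± 0.0756 and 2.71 ± 0.538 CPM per kb and did not differ beyond their spread. *Asns* was at 1.07 ± 0.225 CPM per kb, and *Phgdh*, *Chac1* and *Trib3* were lowest at 0.647 ± 0.206, 0.609 ± 0.123 and 0.425 ± 0.0416 CPM per kb. *Phgdh*, the entry enzyme of serine synthesis, was thus at a lower level than *Psat1* and *Psph*, which act after it.

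*Atf4* (ENSMUSG00000042406, mm10 chromosome 15, 80255184 to 80257541) differed little between groups. In WT placebo the 5 libraries held 69.9, 73.9, 84.3, 79.5 and 88.0 CPM, and in WT MAT2Ai 86.8, 114, 79.5, 85.8 and 74.5 CPM. SP placebo ranged from 73.2 to 80.3 CPM and SP MAT2Ai from 63.4 to 77.8 CPM. All 4 groups overlapped, and the highest value was that of WT MAT2Ai replicate 2. *Ddit3* (ENSMUSG00000025408, chromosome 10, 127290774 to 127296288) lay between 9.70 and 16.6 CPM in all libraries, with every group overlapping every other. Its gene overlaps *Mars* on the opposite strand, from 127296221 to 127296288. The strand setting of the counting step was not given, so how reads of that stretch were assigned is not known.

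**Figure D1:**
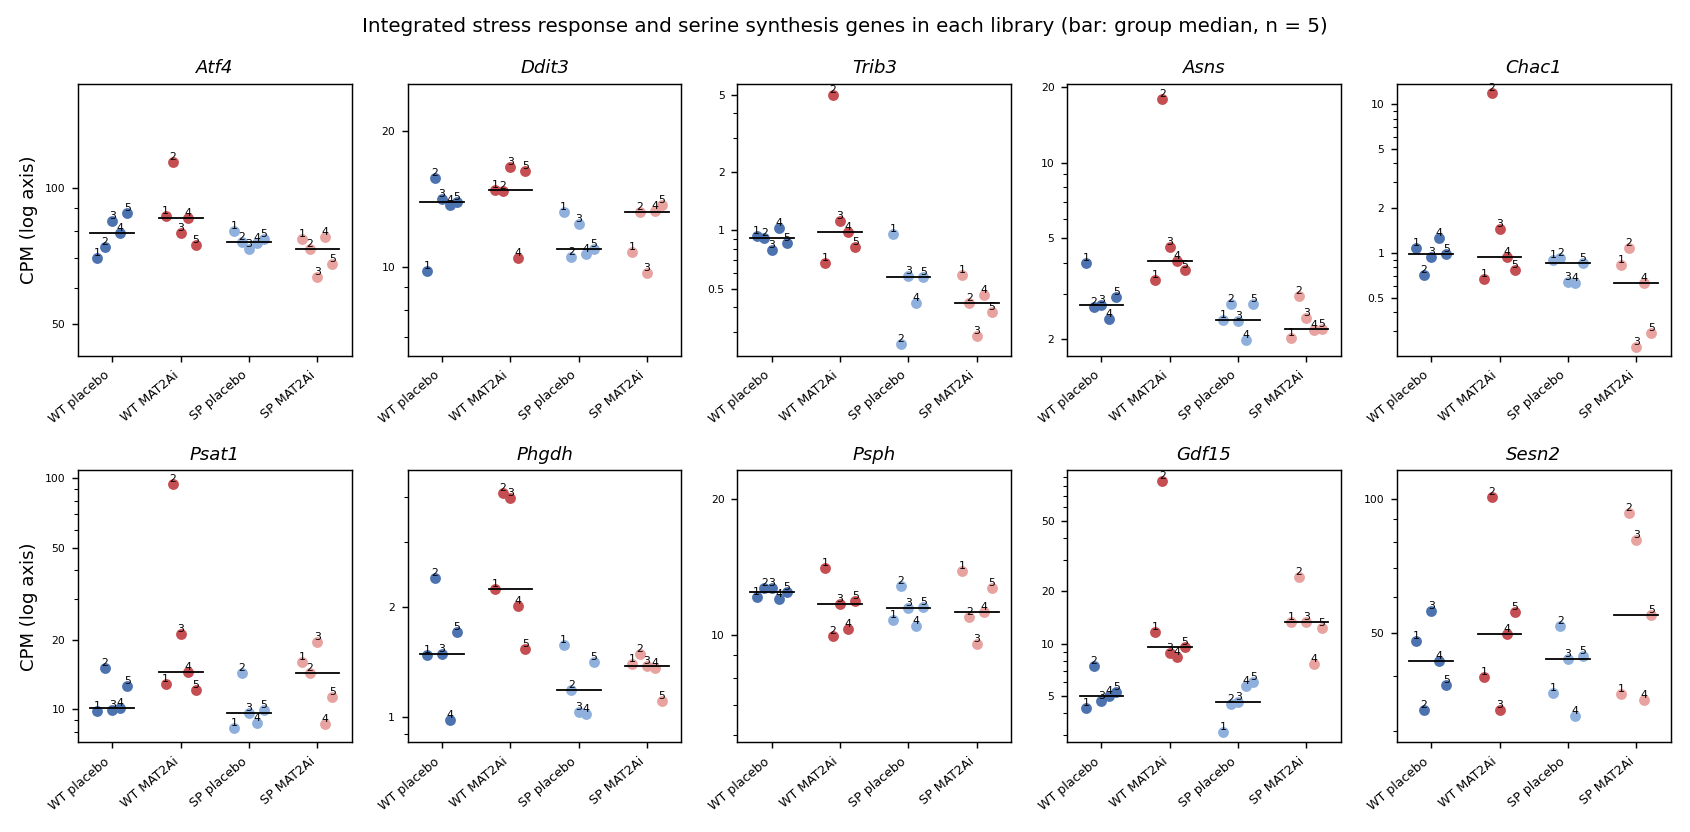
CPM (log axis, TMM-scaled) of each of the 10 genes in the 20 libraries, by group; numbers are replicate numbers and bars are group medians (n = 5). WT MAT2Ai replicate 2 is the highest point for 8 of the 10 genes, and for Gdf15 all 10 MAT2Ai libraries (7.64 CPM and above) lie over all 10 placebo libraries (7.41 CPM and below).

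*Gdf15* was the gene with the widest separation of drug from placebo. It codes for a secreted stress hormone of the TGF-β superfamily that is induced by ATF4, CHOP and p53 (ENSMUSG00000038508, chromosome 8, 70629393 to 70632456). WT placebo libraries held 4.30, 7.41, 4.72, 4.99 and 5.31 CPM, and WT MAT2Ai libraries 11.6, 85.0, 8.79, 8.35 and 9.52 CPM. SP placebo libraries held 3.13, 4.52, 4.61, 5.76 and 6.01 CPM, and SP MAT2Ai libraries 13.2, 24.1, 13.4, 7.64 and 12.3 CPM. The lowest MAT2Ai library of either genotype was above the highest placebo library of either genotype, as for 13 of the 16152 tested genes (0.0805%). Averaged over genotype, *Gdf15* was 1.88 ± 0.38 (SE) higher with MAT2Ai on the log2 scale (3.68-fold, adjusted p = 0.0408, edgeR quasi-likelihood test), and it was the 1 member of 10 called, where 0.186% of all genes were called higher. Without WT MAT2Ai replicate 2 the difference was smaller and its error smaller still, 1.19 ± 0.17 (adjusted p = 0.0019, with 0.153% of genes called higher). This call was lost, at 1.79 ± 0.44 and adjusted p = 0.219, without both libraries labelled SP placebo 1 and 2. It was also lost without any 1 of the 10 placebo libraries or of SP MAT2Ai 1, 2, 3 and 5, where the adjusted p was 0.0565 to 0.0949 and the log2 difference 1.73 to 1.94.

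Within each genotype *Gdf15* separated the groups but did not pass the adjusted threshold. In WT mice the difference was 2.20 ± 0.54 on the log2 scale (unadjusted p = 6.24e-04, adjusted p = 0.143), and *Gdf15* was the 1 member whose groups did not overlap, as did 1.52% of all genes in that direction. Without WT MAT2Ai replicate 2 the WT difference was 0.83 ± 0.24 (adjusted p = 0.303). In SP mice the difference was 1.56 ± 0.54 (unadjusted p = 0.00879, adjusted p = 0.804), again without overlap, as for 1.06% of all genes. Because all groups share 1 estimate of the spread, leaving out WT MAT2Ai replicate 2 also changed the SP result, to 1.55 ± 0.23 with adjusted p = 0.0132, where 0.0798% of all genes were called higher. Without both libraries labelled SP placebo 1 and 2 the SP difference was 1.38 ± 0.66 and did not pass. The difference of the 2 drug responses, SP minus WT, was -0.65 ± 0.74 with all libraries and 0.72 ± 0.34 without WT MAT2Ai replicate 2, and neither passed (adjusted p = 0.894 and 0.965).

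*Gdf15* is shared between the integrated stress response and p53, so both sets of target genes were read beside it. Both lists were chosen with earlier results of these data known. Of 15 p53 targets, 8 were called higher with MAT2Ai averaged over genotype, where 0.186% of all genes were called higher. Among the 8 were *Psrc1* (2.23 ± 0.28), *Phlda3* (1.47 ± 0.20), *Eda2r* (2.23 ± 0.31) and *Mdm2* (0.39 ± 0.06) on the log2 scale, with adjusted p values of 0.00128, 0.00206, 0.00206 and 0.00609. The count was also 8 without WT MAT2Ai replicate 2, where 0.153% of all genes were called higher. It was 3 without the libraries labelled SP placebo 1 and 2, with 13 of 15 at an unadjusted p under 0.05. The share of all genes in that last fit is not given here. Of 26 other ATF4 targets and partners tested, 0 were called in that comparison (12 at an unadjusted p under 0.05, against 14.7% of all genes), and their median log2 difference was 0.30, or 0.15 without WT MAT2Ai replicate 2 (6 at an unadjusted p under 0.05) and 0.30 leaving out SP placebo 1 and 2 (8 of 27). The median of all genes was 0.01. The part of either factor in the *Gdf15* values was not tested. *Sesn2* (ENSMUSG00000028893, chromosome 4, 132492032 to 132510501), also a target of both factors, lay above the range of the placebo libraries in WT MAT2Ai 2 at 101 CPM and in SP MAT2Ai 2 and 3 at 92.7 and 80.8 CPM. The remaining *Sesn2* values lay between 32.5 and 55.8 CPM in all 4 groups, and its averaged difference of 0.44 ± 0.20 did not pass (adjusted p = 0.316). It was 0.27 ± 0.17 without WT MAT2Ai replicate 2 (adjusted p = 0.538).

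**Figure D2:**
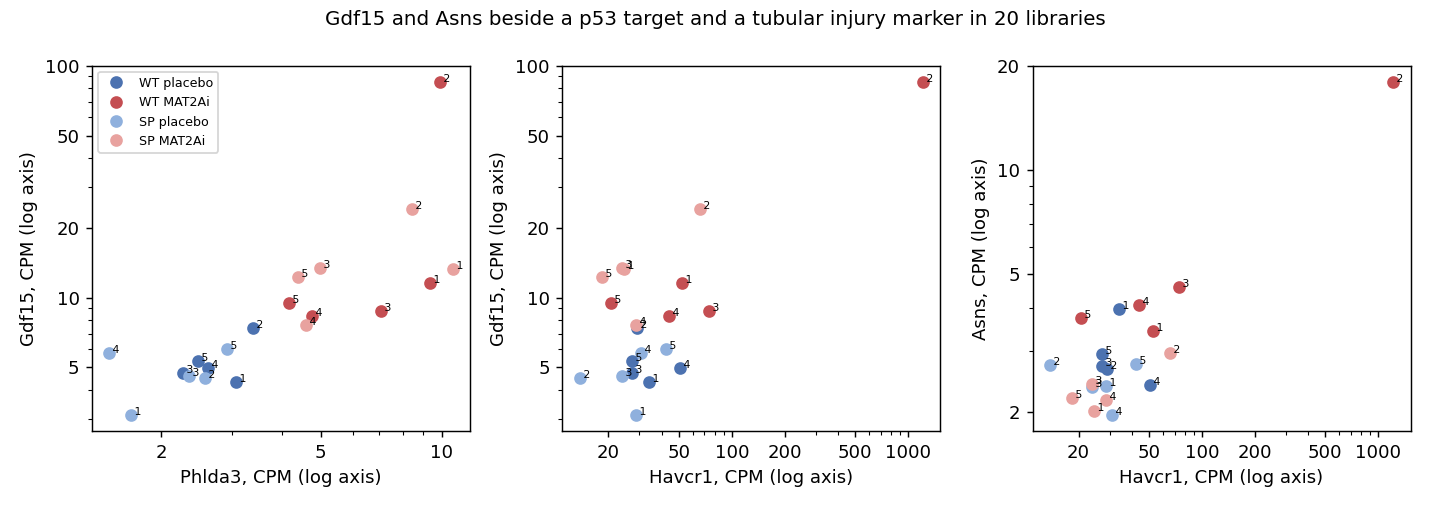
Gdf15 against the p53 target Phlda3, and Gdf15 and Asns against the tubular injury marker Havcr1, all in CPM on log axes, 1 point per library with its replicate number. For Phlda3 the MAT2Ai libraries lie at 4.16 CPM and above and the placebo libraries at 3.39 CPM and below, while Havcr1 sets apart WT MAT2Ai replicate 2 at 1214 CPM from 13.7 to 74.4 CPM in the others.

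In the WT mice the drug comparison of the 10 genes had a median log2 difference of 0.85 and 9 of 10 were positive, against a median of 0.01 and 52.6% positive over all genes. None of the 10 was called by the edgeR quasi-likelihood test, nor was any of the 16152 genes (0%). At an unadjusted p under 0.05 there were 5 members, *Gdf15*, *Asns*, *Psat1*, *Phgdh* and *Chac1*, and 2540 genes in all (15.7%). With DESeq2 and with the edgeR likelihood ratio test 1 member, *Gdf15*, was called, where 1.01% and 0.96% of genes were called higher. DESeq2 gave no adjusted p for *Asns* and *Chac1* in any comparison. Without WT MAT2Ai replicate 2 the median was 0.07 with 7 of 10 positive.

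Of the 10 genes, 8 were at their highest of all 20 libraries in WT MAT2Ai replicate 2, as were 22.6% of all genes. *Chac1*, which codes for an enzyme that breaks down glutathione, was there at 12.0 CPM, 14.1 times the median of the other 19 libraries. The ratio was 11.5 for *Gdf15*, 7.73 for *Psat1*, 7.28 for *Trib3* and 6.60 for *Asns*. It was 2.77 for *Phgdh*, 2.31 for *Sesn2* and 1.48 for *Atf4*, and *Ddit3* (1.11) and *Psph* (0.837) were not highest there.

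The lists of related genes differed in how often that library was the highest of 20. Of 26 other ATF4 targets and partners, 15 were highest there (57.7%), with a median ratio of 2.35 to the other 19 libraries. Genes of these lists are named here after their values were seen, and the largest ratios were those of *Bcat1* (12.5), *Cebpb* (7.33), *Atf3* (6.19) and *Ddit4* (5.28). *Ddit4* was higher still in another library, WT MAT2Ai replicate 4, at 239 CPM against 129 CPM. The list of cytosolic aminoacyl-tRNA synthetases, which load tRNAs with amino acids, also held the tRNA exporter gene *Xpot*. Of its 13 genes 12 were highest there, with ratios up to 1.80 for *Cars*, and *Xpot* was at its lowest of 20 libraries there (0.863). Endoplasmic reticulum (ER) chaperones and other genes of the unfolded protein response were highest there in 2 of 18 cases, *Xbp1* (2.39) and *Atf6* (1.17), and genes of the mitochondrial unfolded protein response in 0 of 8. Genes of the eIF2α kinases, eIF2, eIF2B and their phosphatases were highest there in 8 of 18 cases (44.4%, median ratio 1.08), targets of the oxidative stress factor NRF2 in 5 of 10 (median ratio 1.52) and p53 targets in 5 of 15 (33.3%, median ratio 1.62). Of the 12 tubular injury genes 10 were highest there, with a median ratio of 7.79. Of 18 genes of serine, glycine and one-carbon use, 3 were highest there and 10 were lowest of all 20 libraries, where 3423 of 16152 tested genes were lowest. The 3 were the mitochondrial folate enzymes *Mthfd2* (9.60 times the median of the others) and *Mthfd1l* (2.85), and *Gldc* (2.57) of the glycine cleavage system, while *Shmt1* and *Shmt2*, which interconvert serine and glycine, stood at 0.485 and 0.449. These ratios stood beside the injury and proximal tubule markers of that library given above, whose part in them was not tested.

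**Figure D3:**
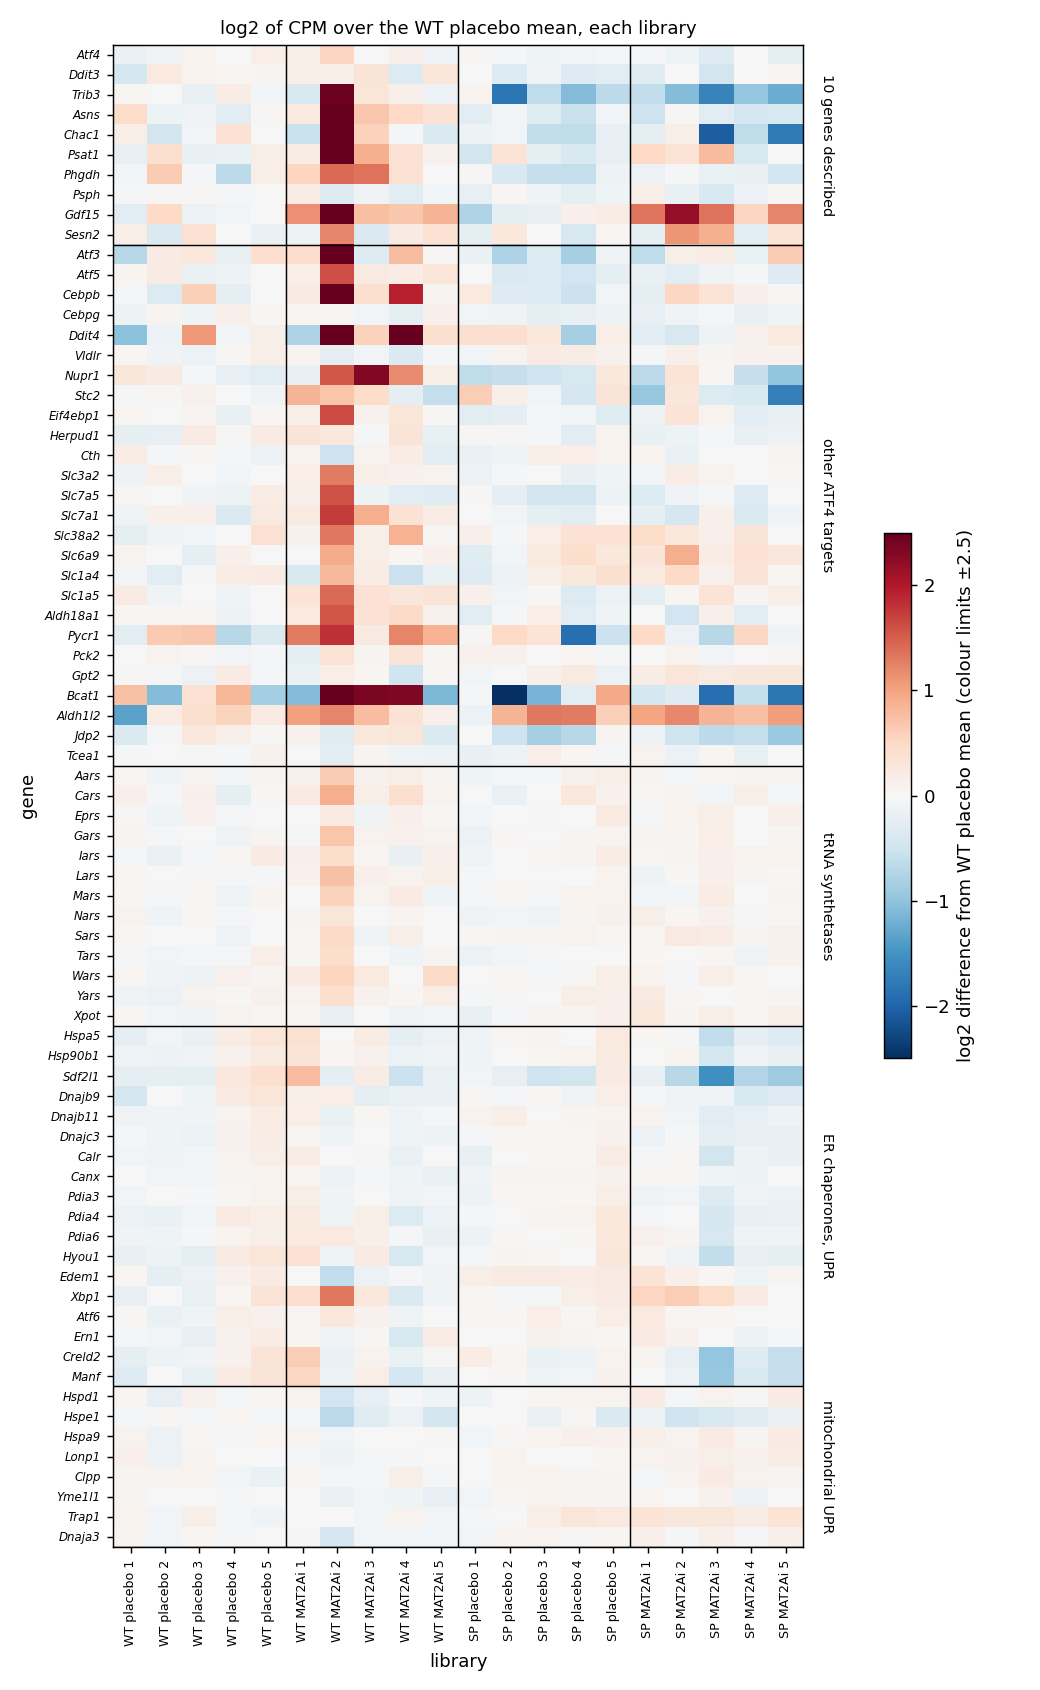
Each row is a gene and each column a library; colour is log2 CPM minus the mean log2 CPM of WT placebo, cut at ±2.5. The column of WT MAT2Ai replicate 2 is red over most of the 10 genes described, the other ATF4 targets and the tRNA synthetase list. It is the highest of 20 libraries in 8 of 10, 15 of 26 and 12 of 13 of these, the last list including the exporter gene Xpot. The column is not red over the ER chaperones (2 of 18) or the mitochondrial unfolded protein response (0 of 8).

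*Asns* codes for asparagine synthetase (ENSMUSG00000029752, chromosome 6, 7675169 to 7693254). WT placebo libraries held 3.98, 2.66, 2.72, 2.39 and 2.94 CPM and WT MAT2Ai libraries 3.42, 17.9, 4.61, 4.07 and 3.74 CPM. SP placebo libraries held 2.38, 2.74, 2.36, 1.97 and 2.75 CPM and SP MAT2Ai libraries 2.02, 2.96, 2.42, 2.17 and 2.19 CPM. All 5 WT MAT2Ai libraries were above all 5 SP MAT2Ai libraries, and the 2 WT groups overlapped through WT placebo replicate 1. The WT drug difference was 1.20 ± 0.35 on the log2 scale (adjusted p = 0.167), or 0.43 ± 0.15 without WT MAT2Ai replicate 2 (adjusted p = 0.414), and the SP difference was -0.05 ± 0.35 (adjusted p = 0.997).

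*Trib3* codes for a pseudokinase that restrains ATF4 and CHOP (ENSMUSG00000032715, chromosome 2, 152337422 to 152344032). It was at 0.929, 0.907, 0.792, 1.03 and 0.860 CPM in WT placebo and at 0.681, 4.95, 1.11, 0.977 and 0.818 CPM in WT MAT2Ai. In SP placebo it was at 0.952, 0.259, 0.578, 0.423 and 0.570 CPM and in SP MAT2Ai at 0.585, 0.424, 0.283, 0.463 and 0.380 CPM. The highest SP value was that of the library labelled SP placebo 1. Other SP libraries lay at 0.585 CPM and below, and WT libraries at 0.681 CPM and above. This split was seen in the values with SP placebo 1 set aside, and how many of all genes share it was not counted. *Trib3* and *Chac1* were the sparsest members, with 1159 and 1797 reads over all 20 libraries. *Chac1* (ENSMUSG00000027313, chromosome 2, 119351229 to 119354381) lay between 0.233 and 1.45 CPM outside WT MAT2Ai replicate 2, and its groups overlapped. Its WT drug difference turned from 1.67 ± 0.64 to -0.06 ± 0.35 without that library, and that of *Trib3* from 0.92 ± 0.44 to -0.02 ± 0.28.

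Of the serine pathway, *Phgdh* (ENSMUSG00000053398, chromosome 3, 98313170 to 98339990) was at 1.48, 2.40, 1.49, 0.981 and 1.70 CPM in WT placebo and at 2.24, 4.10, 3.97, 2.01 and 1.53 CPM in WT MAT2Ai. SP placebo libraries held 1.58, 1.19, 1.03, 1.02 and 1.42 CPM and SP MAT2Ai libraries 1.40, 1.49, 1.38, 1.36 and 1.11 CPM. Here 2 WT MAT2Ai libraries stood out together, replicates 2 and 3. The WT drug difference was 0.78 ± 0.26 (adjusted p = 0.186), and it was 0.59 ± 0.25 without WT MAT2Ai replicate 2 (adjusted p = 0.501) and 0.26 ± 0.23 without both replicates (adjusted p = 0.856). Replicate 3 of WT MAT2Ai also held the most of 3 adipocyte markers, at a summed level of 4.94 CPM. WT placebo 2, highest of its group for *Phgdh*, held 3.6 CPM of them, and SP libraries reached 0.283 CPM. In WT MAT2Ai replicate 2 *Adipoq* was at 0, *Plin1* at 0.031 and *Cidec* at 0.683 CPM. The part of fat tissue in the *Phgdh* values was not tested. *Psat1*, the aminotransferase gene of the pathway (ENSMUSG00000024640, chromosome 19, 15904678 to 15947337), was at 9.88, 15.1, 9.99, 10.1 and 12.7 CPM in WT placebo and at 12.9, 94.2, 21.1, 14.5 and 12.2 CPM in WT MAT2Ai. It was at 8.27, 14.4, 9.67, 8.74 and 9.92 CPM in SP placebo and at 16.0, 14.4, 19.6, 8.66 and 11.3 CPM in SP MAT2Ai, so that drug and placebo overlapped in both genotypes. Its averaged drug difference of 0.94 ± 0.31 did not pass (adjusted p = 0.219). Without WT MAT2Ai replicate 2 it was 0.42 ± 0.15 (adjusted p = 0.284), and the WT drug difference went from 1.42 to 0.39. *Psph*, the phosphatase gene of the last step (ENSMUSG00000029446, chromosome 5, 129765558 to 129787449), kept to 9.52 to 14.0 CPM in all 20 libraries, and its averaged difference was -0.04 ± 0.07. Its locus overlaps *Cct6a* on the opposite strand, with the same limit on strand as for *Ddit3*.

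Between SP and WT mice on MAT2Ai, 6 of the 10 genes had an unadjusted p under 0.05 (21.8% of all genes did), and 3 were lower in SP by the edgeR quasi-likelihood test, where 1.2% of all genes were called lower. They were *Trib3* (-1.99 ± 0.46 on the log2 scale, adjusted p = 0.0421), *Asns* (-1.52 ± 0.35, adjusted p = 0.0421) and *Phgdh* (-1.04 ± 0.26, adjusted p = 0.0441). In these 3 genes every SP MAT2Ai library was below every WT MAT2Ai library, as for 1.68% of all genes. The values of *Chac1* (-2.36 ± 0.66, adjusted p = 0.0586), *Atf4* (-0.30 ± 0.09, adjusted p = 0.0806) and *Psat1* (-1.15 ± 0.44, adjusted p = 0.137) did not pass, and those of *Ddit3*, *Psph*, *Gdf15* and *Sesn2* were at adjusted p = 0.258 to 0.978. Without WT MAT2Ai replicate 2 the differences were smaller, -0.75 ± 0.16 for *Asns* (adjusted p = 0.0358), -1.06 ± 0.29 for *Trib3* (adjusted p = 0.0638) and -0.85 ± 0.25 for *Phgdh* (adjusted p = 0.0792), so that 1 call remained where 0.97% of all genes were called lower. In that fit *Chac1* was at -0.64 ± 0.35 and *Psat1* at -0.12 ± 0.21. Without WT MAT2Ai replicates 2 and 3 the value of *Phgdh* was -0.51 ± 0.23 (adjusted p = 0.311). Without both libraries labelled SP placebo 1 and 2, which enter only through the shared spread, the adjusted p was 0.0469 for *Trib3*, 0.0588 for *Asns* and 0.0605 for *Phgdh*, with 0.471% of all genes called lower. DESeq2 called *Trib3*, *Phgdh* and *Atf4* (4.58% of all genes called lower), the likelihood ratio test *Trib3*, *Asns*, *Phgdh* and *Chac1* (4.24%) and limma-voom *Asns* and *Phgdh* (1.5%). All 3 calls were lost without any 1 of WT placebo 3, 4 and 5, SP placebo 3 or SP MAT2Ai 1, 2, 3 and 5. The count was 1 without SP placebo 2 and 5 without WT MAT2Ai 5, when *Chac1* and *Atf4* passed as well.

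**Figure D4:**
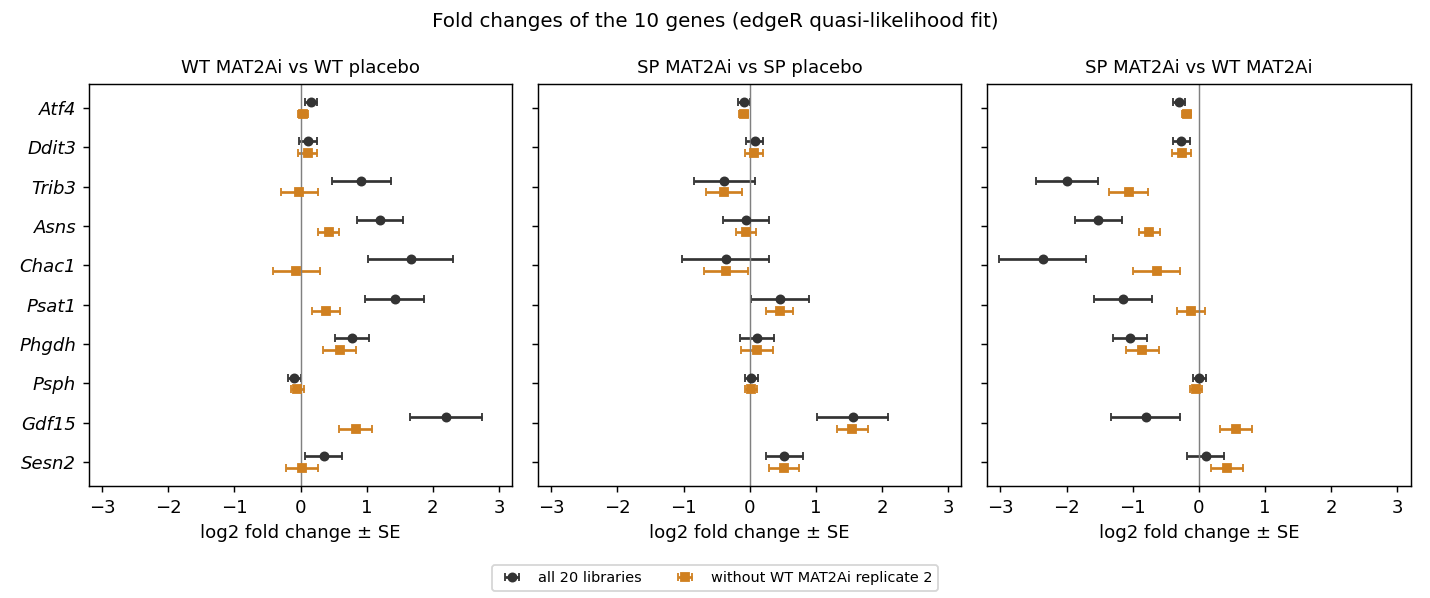
Log2 fold change ± SE of the 10 genes in 3 comparisons, from the edgeR fit of all 20 libraries (circles) and without WT MAT2Ai replicate 2 (squares). In WT mice the values of Trib3, Chac1 and Sesn2 move to near 0 without that library, and that of Gdf15 goes from 2.20 to 0.83. Asns, Trib3 and Phgdh stay below 0 in SP MAT2Ai against WT MAT2Ai. That library enters the SP drug comparison only through the shared spread, so Gdf15 (1.55 without it) had little room to move there.

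Few genes of the related lists were called between SP MAT2Ai and WT MAT2Ai. Of the 26 other ATF4 targets and partners, 2 were called lower, *Nupr1* (-1.56 ± 0.36) and the arginine and lysine carrier *Slc7a1* (-1.01 ± 0.23), both at adjusted p of about 0.042, and 19 of 26 values were negative with a median of -0.55. Leaving out SP placebo 1 and 2 the count was 0 of 27, with 18 at an unadjusted p under 0.05 and a median of -0.56. Without WT MAT2Ai replicate 2 the median was -0.18 with 20 of 26 negative, *Slc7a1* (adjusted p = 0.0482) and *Atf5* (adjusted p = 0.0431) were called lower, and 1 gene, *Gpt2*, was called higher (0.39 ± 0.10, adjusted p = 0.0482, named after its value was seen). Of the 13 genes of the synthetase list, which includes *Xpot*, 0 were called (4 at an unadjusted p under 0.05). The sign of their median turned from -0.09 to 0.01 without WT MAT2Ai replicate 2. The mitochondrial chaperone gene *Trap1* was higher in SP MAT2Ai (0.30 ± 0.07, adjusted p = 0.0369), the 1 of 8 genes of the mitochondrial unfolded protein response that was called. Markers of some other cells and of injury also differed in this comparison, but not those of every cell type. The 3 neutrophil markers had a median summed level of 6.85 CPM in SP MAT2Ai and 5.18 CPM in WT MAT2Ai. Their ranges, 2.26 to 13.4 and 1.40 to 15.3 CPM, overlapped widely. The summed podocyte, collecting duct, distal tubule and adipocyte markers also overlapped between these groups (for adipocyte markers 0 to 0.283 against 0 to 4.94 CPM). Of 5 macrophage markers 3 were called lower in SP MAT2Ai, *C1qb*, *C1qc* and *Cd68*, and 2 without WT MAT2Ai replicate 2 or without the libraries labelled SP placebo 1 and 2. Their summed level was 9.62 to 20.2 CPM in SP MAT2Ai and 23.9 to 31.1 CPM in WT MAT2Ai. All 4 endothelial markers were at negative values (summed level 56.8 to 80.9 against 61.3 to 175 CPM), with 0 called and 4 at an unadjusted p under 0.05, or 3 called, *Emcn*, *Plvap* and *Pecam1*, without that library. Of 6 lymphocyte markers 5 were tested, all at negative values with 0 called and 2 at an unadjusted p under 0.05 (summed level 2.97 to 6.24 against 6.04 to 16.8 CPM). The 3 fibroblast markers were also at negative values, with 0 called and 3 at an unadjusted p under 0.05 (summed level 10.7 to 28.4 against 19.8 to 42.4 CPM), and no group had any of these markers at 0 throughout. Of the 5 markers of the S1 and S2 proximal tubule *Slc22a6* was called higher in SP MAT2Ai (0.55 ± 0.11, or 0.46 without WT MAT2Ai replicate 2) and *Slc5a2*, the mutated gene, lower. Among the 4 S3 markers, 3 were at positive values and 1 at a negative value, both with all libraries and without WT MAT2Ai replicate 2. With all libraries 0 of them were called, and without WT MAT2Ai replicate 2 the 1 called was *Slco1a1*, higher in SP MAT2Ai (0.59). All 12 tubular injury genes were at negative values and 3, *Lcn2*, *Krt20* and *Sox9*, were called lower, while without WT MAT2Ai replicate 2 the count was 0 and the median went from -1.58 to -0.60. The count was also 0 without the libraries labelled SP placebo 1 and 2, with 11 at an unadjusted p under 0.05. The part of these cells and of the injury genes in the members' differences was not tested.

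In SP mice alone the drug comparison of the 10 genes was centred near 0, with a median log2 difference of 0.05 and 6 of 10 positive, or 0.09 and 7 of 10 without the libraries labelled SP placebo 1 and 2. None of the 10 was called, where 0.0186% of all genes were, and 1, *Gdf15*, had an unadjusted p under 0.05 (5.92% of all genes). WT MAT2Ai replicate 2 enters this comparison only through the shared spread. Without it the same edgeR test called *Gdf15* (adjusted p = 0.0132), where 0.0798% of all genes were called higher. In that fit *Psat1* (0.45 ± 0.20) and *Sesn2* (0.52 ± 0.23) did not pass, both at an adjusted p of about 0.57. With limma-voom *Gdf15* was called, where 0.0867% of all genes were called higher. The 26 other ATF4 targets had a median of 0.04, with 0 called and 2 at an unadjusted p under 0.05, or -0.0043 and 0 of 27 without SP placebo 1 and 2. Of 18 ER chaperone and unfolded protein response genes, 17 were at negative values in SP mice with a median of -0.18, and 7 had an unadjusted p under 0.05, led by *Dnajc3* (-0.20 ± 0.06) and *Pdia3* (-0.18 ± 0.07), but 0 were called (smallest adjusted p = 0.774). Without the same libraries the median was -0.22, with 4 at an unadjusted p under 0.05. Of the methionine cycle, *Mat2a*, the gene of the drug's target, was at 0.09 ± 0.14 in SP and 0.37 ± 0.14 in WT mice, and 0 of 11 genes were called in either genotype (1 in SP and 3 in WT mice at an unadjusted p under 0.05).

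On placebo the 2 genotypes did not differ in any of the 10 genes at the adjusted threshold, nor in any gene tested (0%). All 10 values were negative in SP placebo against WT placebo, with a median of -0.20 where that of all genes was 0.00, and 9 of 10 with a median of -0.27 without the libraries labelled SP placebo 1 and 2. None of the 10 had an unadjusted p under 0.05, as 3.75% of all genes did, and no member's groups failed to overlap. WT MAT2Ai replicate 2 enters there only through the shared spread. Without it *Trib3* was at -0.69 ± 0.27 in the same edgeR test (unadjusted p = 0.019, adjusted p = 0.842). The lowest value was that of *Trib3*, -0.69 ± 0.46, and -0.79 ± 0.52 without the libraries labelled SP placebo 1 and 2, when that of *Gdf15* turned to 0.02 ± 0.64. The drug responses of SP and WT mice did not differ for any member at the adjusted threshold either, as for all genes (0%). *Asns* (-1.25 ± 0.50) and *Chac1* (-2.03 ± 0.92) were the 2 with an unadjusted p under 0.05 (5.59% of all genes), at 0.02 and 0.0388, and an adjusted p of 0.842, and without WT MAT2Ai replicate 2 their values were -0.48 ± 0.21 and -0.30 ± 0.48. Without the libraries labelled SP placebo 1 and 2 the unadjusted p was 0.0464 for *Asns* and 0.0894 for *Chac1*.

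Genes with a pattern like that of *Asns* over all 20 libraries were ranked by Spearman's rho of log2 CPM among 11817 genes, as a description. They were *Wdyhv1* (0.842), *Nupr1* (0.824), *Golm1* (0.793), *Hfe* (0.787) and *Lbh* (0.785). Pearson's r of these 5 with *Asns* was 0.733 to 0.893, and 0.604 to 0.743 without WT MAT2Ai replicates 2 and 3. For *Phgdh* the 5 were *Golm1* (0.848), *St3gal1* (0.827), *Esyt1* (0.826), *Atf5* (0.818) and *Plat* (0.805), with r of 0.735 to 0.859, and 0.542 to 0.811 without those libraries. *Golm1*, which codes for a Golgi membrane protein, was in both lists, and *Nupr1* and *Atf5* were the 2 known ATF4 targets among these genes. All of these values share the depth and the tissue composition of the same 20 libraries.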

How the data were processed

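Cortex RNA of 20 mice was sequenced as directional poly(A) libraries. The authors used STAR on trimmed reads with the mm10 build and deposited unscaled counts per Ensembl gene from htseq-count; its strand setting is not given in the sources used here. Symbols and coordinates of 42462 of 43430 genes came from GENCODE M21, and 5 summary lines per file were left out. Labels call 20 separate samples and tie none to a shared litter or day, so p values measure the spread between these libraries. Genes passing filterByExpr were scaled by TMM and tested with edgeR 4.0.16 (quasi-likelihood, R 4.3.3) in 1 model of 4 groups and 20 libraries, and p was adjusted over all tested genes (Benjamini-Hochberg). Genes under 0.05 were called. CPM used TMM library sizes. The SE is the log2 fold change over the square root of F. Alternatives were DESeq2 1.42.0, limma-voom (limma 3.58.1), the likelihood ratio test, other scaling and filters, a replicate block, and libraries left out; leaving out 3 libraries together was chosen after seeing the data. The code was tested on simulated counts. Motif windows and sequences came from RefSeq. The 10 genes and all lists were chosen with earlier results of these data known. Named beside the members are up to 4 genes of the lowest p in a list and comparison, the 5 most like *Asns* or *Phgdh*, and markers of genotype, drug target and injury.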

Additional observations from a re-analysis of the deposited data

Results flagged for a closer look

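In 6 of 40 sets of 5 libraries (10 genes in 4 groups), 1 library stood apart from the other 4 by Dixon's test, where chance gives about 1 in 20. That rate is for independent sets, and these 10 genes share the same 20 libraries, so 6 of 40 cannot be set against it. In 5 of the 6 sets the library apart was WT MAT2Ai replicate 2, high for *Trib3* (4.95 CPM), *Asns* (17.9 CPM), *Chac1* (12.0 CPM), *Psat1* (94.2 CPM) and *Gdf15* (85.0 CPM). The sixth was *Ddit3*, low in WT MAT2Ai replicate 4 at 10.4 CPM.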

How the results depend on the processing

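Reads of *Trib3* and *Chac1* were few, the replicate numbers did not pair the mice (mean correlation of same-numbered libraries -0.0158 over 30 pairs, 4 of them over 0.1, with 6 of 20 libraries best matched to their own number), and single libraries set several values. Over 20 fits that each left out 1 library, members called ranged from 0 to 1 for MAT2Ai averaged over genotype, from 0 to 1 in SP mice and from 0 to 5 for SP MAT2Ai against WT MAT2Ai. The median of the 10 genes ranged from 0.073 to 1.01 for the WT drug comparison, from -1.10 to -0.22 for SP MAT2Ai against WT MAT2Ai and from -0.84 to -0.084 for the interaction of genotype and drug, with the value nearest 0 reached without WT MAT2Ai 2 each time. For SP MAT2Ai against WT MAT2Ai 0 members were called with the replicate block, with only the groups compared and without WT MAT2Ai 2 and 3. The block changed no other count of called members. DESeq2 and the likelihood ratio test each called 1 member in WT mice and limma-voom 1 in SP mice (*Gdf15* each time), and without SP placebo 1 and 2 the averaged comparison called 0. By these 3 tools, of which DESeq2 gave an adjusted p for 8 of the 10, 0 members were called between the placebo groups or for the interaction.

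Medians with limma-voom were 0.10 in the WT drug comparison, -0.29 for SP MAT2Ai against WT MAT2Ai and -0.18 for the interaction. Without WT MAT2Ai 2 and 3 they were 0.097, -0.19 and 0.0042, and the interaction was -0.055 without WT MAT2Ai 2 and SP placebo 1 and 2. Signs turned as follows, none of them past the threshold on either side except as given in the report.

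With limma-voom the log2 values became -0.019 for *Chac1* and -0.056 for *Sesn2* in WT mice, -0.073 for *Psph* and 0.31 for *Gdf15* between MAT2Ai groups, 0.42 for *Gdf15* in the interaction, and -0.015 for *Atf4*, -0.13 for *Trib3*, -0.32 for *Chac1* and 0.012 for *Psph* averaged over genotype.

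Without WT MAT2Ai 2 and 3 they became -0.14 for *Trib3* and -0.34 for *Chac1* in WT mice, 0.082 for *Psat1*, -0.054 for *Psph* and 0.52 for *Gdf15* between MAT2Ai groups, 0.035 for *Ddit3*, 0.26 for *Psat1* and 0.68 for *Gdf15* in the interaction, and -0.019 for *Atf4*, -0.26 for *Trib3* and -0.35 for *Chac1* averaged.

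Without SP placebo 1 and 2 they became 0.0024 for *Asns* in SP mice and 0.023 for *Gdf15* between placebo groups. With WT MAT2Ai 2 left out as well they became 0.18 for *Psat1* and 0.54 for *Gdf15* in the interaction, and -0.0076 for *Atf4*, -0.15 for *Trib3*, -0.13 for *Chac1* and 0.0097 for *Psph* averaged.

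With 1 library left out, values crossed 0 in WT mice for *Trib3* (-0.018 to 1.10) and *Chac1* (-0.061 to 1.91), in SP mice for *Asns* (-0.15 to 0.00079) and *Psph* (-0.039 to 0.093), and between placebo groups for *Sesn2* (-0.15 to 0.034). They did so between MAT2Ai groups for *Psph* (-0.059 to 0.093), *Gdf15* (-1.07 to 0.56) and *Sesn2* (-0.099 to 0.43). In the interaction they did so for *Ddit3* (-0.14 to 0.053), *Psat1* (-1.17 to 0.062), *Gdf15* (-0.91 to 0.72) and *Sesn2* (-0.030 to 0.50), and averaged over genotype for *Atf4* (-0.026 to 0.060), *Trib3* (-0.20 to 0.40) and *Chac1* (-0.21 to 0.78). The cause of these changes was not tested.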
